A study of Mus musculus with 15 samples.

Results

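The 10 genes described here encode the machinery that builds heparan sulfate and the membrane proteins that carry it: the heparan sulfate polymerase subunits Ext1 and Ext2, the glypicans Gpc1, Gpc3, Gpc4 and Gpc6, and the syndecans Sdc1, Sdc2, Sdc3 and Sdc4. They were taken by gene name, as a set chosen with earlier results of these data known. They are 10 of the 55359 genes listed for 15 mouse samples, with 3 samples in each of 5 groups. 46LCNEC_cell and 57SCLC_cell are cultured cell lines of large cell neuroendocrine carcinoma and small cell lung carcinoma, 46LCNEC_allo and 57SCLC_allo are subcutaneous tumors grown from these lines, and Lung is normal lung of littermates of the recipient mice. The lines came from QKO mice, which carry a null Rbl1 and floxed alleles of other tumor suppressors that include Trp53. For 46LCNEC the recombinase was delivered to the airways by an adenovirus with a CMV promoter, active in many cell types. For 57SCLC it was driven by the keratin K5 promoter, active in basal airway cells. 46LCNEC grew as an adherent monolayer and 57SCLC in suspension. Recipients were immunocompetent QKO mice, and the cells were injected with Matrigel. Each tumor type is represented by 1 line, so a difference between the lines cannot be told apart from one between the tumor types, the promoters, the ways of growing in culture or the dates in the labels of the cultures, which also differ.

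Heparan sulfate is a long, sulfated sugar chain attached to core proteins at the cell surface and in the matrix. In the Golgi, a linker is built on the core protein, Ext1 and Ext2 together extend the chain, and sulfotransferases then modify it in patches. The finished chains bind growth factors, Wnt and hedgehog proteins, chemokines and matrix proteins. Syndecans span the membrane, whereas glypicans are held on its outer face by a lipid anchor.

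Cell replicates were separate dishes (46LCNEC) or flasks (57SCLC) and each tumor or lung is named by its number. Between 9480244 and 44876572 reads were counted per sample, fewest in 57SCLC_allo tumor 275, and the values are normalized counts, that is reads divided by a size factor for the sample. Flask C of 57SCLC_cell stood apart from flasks A and B. The chi-square of their reads, per degree of freedom, was 144 and 127 for its pairs and 2.8 for A with B (92.6 to 133 between the 46LCNEC tumors, which also varied), so for the 10 genes a value is also given without flask C where that changes a call or moves the fold change by over 1.5 times. Of the neuroendocrine markers, Chga, Elavl3, Elavl4, Scg3 and Syp had at most 18.5 normalized counts in any 46LCNEC sample, and Ncam1 was the marker that exceeded 3000 there, while all 6 passed 600 in every 57SCLC sample. Alveolar markers summed to at least 200260 in Lung and to at most 1542 elsewhere. The group means of Rb1, Rbl1 and Trp53, counted over all exons and so blind to recombined alleles, ran from 85.7 to 414, from 830 to 2881 and from 997 to 1465. In 57SCLC_cell, which had the highest Rb1 mean, flask C had 777 normalized counts of Rb1 and flasks A and B had 229 and 236.

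The difference between the lines was the broadest pattern in this set. In cells, 8 of the 10 genes were lower in 57SCLC than in 46LCNEC (Ext1, Ext2, Gpc4, Gpc6 and the syndecans), 1 was higher (Gpc3) and Gpc1 was not called. In allografts, 8 were again lower (Gpc1 in place of Sdc3) and Gpc3 was again higher. Calls required an adjusted p (Benjamini-Hochberg) no greater than 0.01 together with a 2-fold change or more in limma, fitted over all genes on log2(normalized count + 1), a scale on which the change of low genes is understated. Of all genes tested, 22.2% were called lower and 23.9% higher between the cells, and 14.2% lower and 16.1% higher between the allografts. The median log2 fold change of the 10 genes was -3.67 between the cells, where that of all genes was 0.00, and -1.99 between the allografts, where it was 0.01. With values scaled to the library size, 64.6% of all calls between the allografts were higher in 57SCLC, compared with 53.1% here, and the median of all genes moved by 0.27 (0.24 between the cells). None of the called members changed direction under that scaling.

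**Figure D1:**
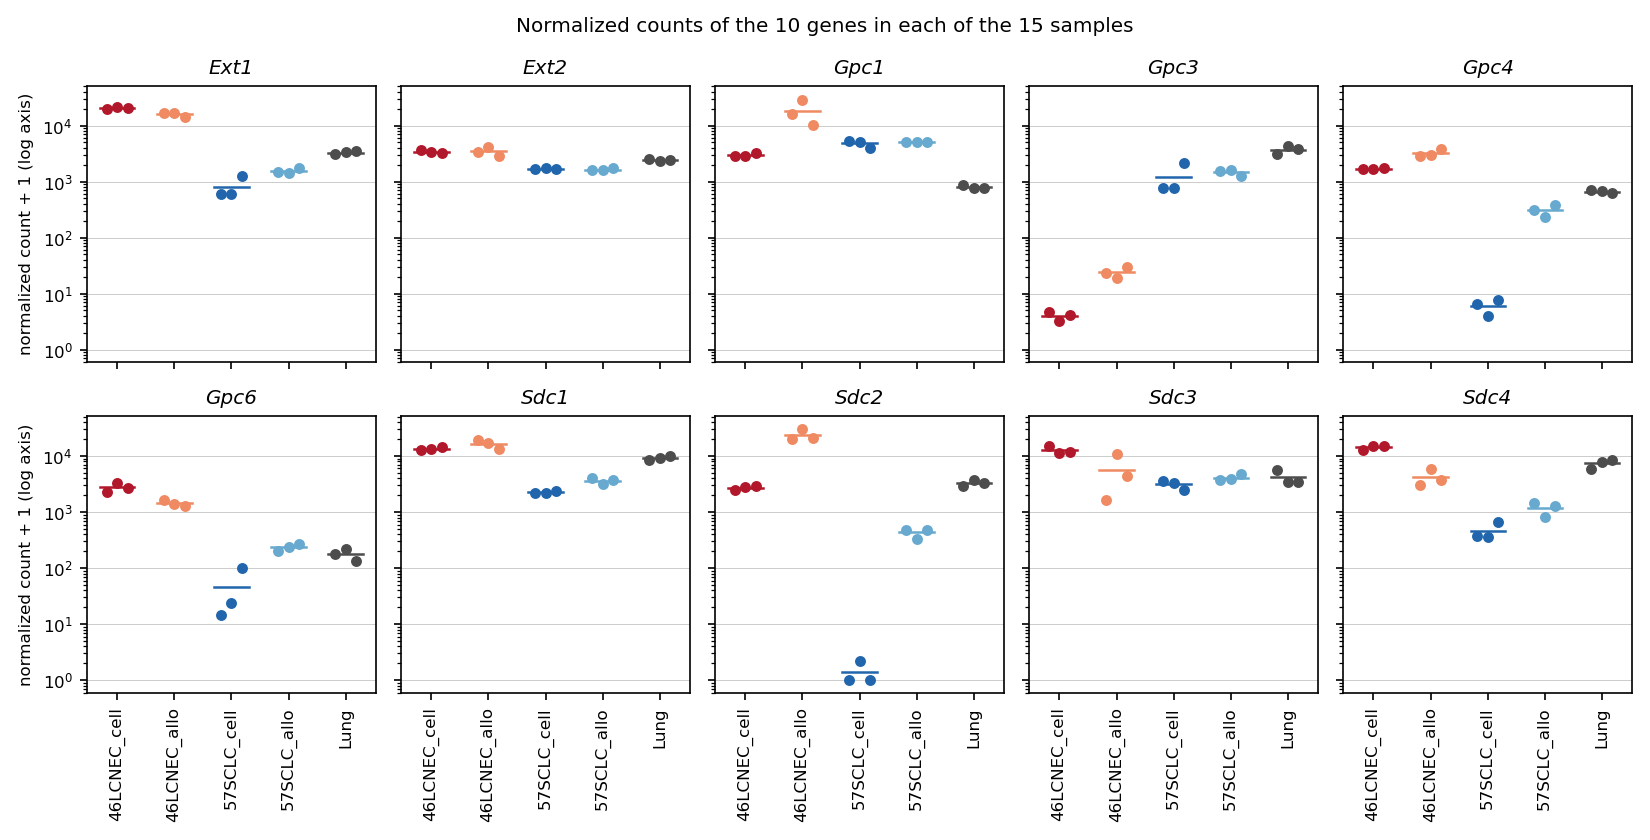
Normalized count plus 1 (log axis) of each of the 10 genes in the 15 samples, grouped along the horizontal axis; points are samples and bars are group means. Sdc2 and Gpc4 fall to single reads or low counts in 57SCLC_cell, Gpc3 does so in 46LCNEC_cell, and Ext2 stays within a 2.12-fold range of group means.

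Promoters are shown for Gpc3 and Gpc4, neighbours with opposite order between the lines, and for Sdc1 and Sdc4, which were lower in 57SCLC in both settings. They run from 250 bases before to 50 bases after the start in RefSeq on GRCm38.p6, an older build than the gene coordinates given with each gene. A sequence was matched for 6 of the 10 genes (Ext2, Gpc3, Gpc4, Sdc1, Sdc3, Sdc4) and not for Ext1, Gpc1, Gpc6 and Sdc2. Capitals mark the GC box, GGGCGG or its reverse complement CCGCCC.
Gpc3, chrX:52613925-52614224, minus strand: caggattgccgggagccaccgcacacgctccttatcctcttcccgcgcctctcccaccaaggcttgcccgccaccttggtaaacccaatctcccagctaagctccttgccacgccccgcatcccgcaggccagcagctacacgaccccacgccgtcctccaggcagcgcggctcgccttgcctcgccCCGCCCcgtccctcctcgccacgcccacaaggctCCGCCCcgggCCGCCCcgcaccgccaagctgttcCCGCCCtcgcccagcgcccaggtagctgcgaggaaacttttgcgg
Gpc4, chrX:52164874-52165173, minus strand: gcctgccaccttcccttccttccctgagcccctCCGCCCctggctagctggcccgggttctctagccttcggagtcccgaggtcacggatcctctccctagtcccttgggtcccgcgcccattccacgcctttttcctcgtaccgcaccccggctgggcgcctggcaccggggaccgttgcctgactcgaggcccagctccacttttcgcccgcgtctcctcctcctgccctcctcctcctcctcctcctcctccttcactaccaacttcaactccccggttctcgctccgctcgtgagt
Sdc1, chr12:8771146-8771445, plus strand: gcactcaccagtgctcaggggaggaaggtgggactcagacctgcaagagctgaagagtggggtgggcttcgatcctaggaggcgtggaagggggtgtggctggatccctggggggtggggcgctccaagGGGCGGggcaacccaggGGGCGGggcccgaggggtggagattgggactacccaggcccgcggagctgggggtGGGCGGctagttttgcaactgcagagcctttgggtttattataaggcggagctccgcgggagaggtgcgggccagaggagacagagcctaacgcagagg
Sdc4, chr2:164443139-164443438, minus strand: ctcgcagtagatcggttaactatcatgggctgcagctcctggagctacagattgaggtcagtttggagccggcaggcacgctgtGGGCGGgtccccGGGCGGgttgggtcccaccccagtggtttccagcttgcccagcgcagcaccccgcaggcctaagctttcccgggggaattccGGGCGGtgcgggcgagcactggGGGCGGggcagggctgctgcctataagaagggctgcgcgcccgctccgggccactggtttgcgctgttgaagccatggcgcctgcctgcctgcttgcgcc
The GC box occurred 4 times in Gpc3, 1 time in Gpc4, 3 times in Sdc1, 3 times in Sdc3, 4 times in Sdc4 and 0 times in Ext2, and 35.7% of 32851 promoters of this length held it on either strand. The 6 windows were 58% (Ext2) to 77.7% (Sdc3) G and C, where the median of all promoters was 52.7%. Also searched on both strands were TATAAA, found in none of the 6 and in 13.6% of all promoters, CCAAT, found 1 time each in Gpc3 and Sdc1 and in 37.4% of all, CANNTG, found 2 times in Ext2 and 1 time in Sdc1 and in 72.3% of all, and TGANTCA, found in none of the 6 and in 7.81% of all. None of the matches overlapped a match of another motif. Gpc3 and Gpc4 both held a GC box, and a match is a description of the letters only.

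Ext1 and Ext2 form the polymerase, and neither subunit is efficient without the other. Ext1 (ENSMUSG00000061731, chromosome 15, 52927434 to 53209602, minus strand, GRCm39) had 19839, 21529 and 21024 normalized counts in dishes A, B and C of 46LCNEC_cell, and 17056, 16535 and 14335 in tumors 312, 319 and 321 of 46LCNEC_allo. It had 599, 595 and 1246 in flasks A, B and C of 57SCLC_cell, and 1477, 1435 and 1723 in tumors 275, 316 and 317 of 57SCLC_allo. The lungs CT3, CT4 and CT5 had 3070, 3311 and 3499. No neighbouring groups overlapped in the order 46LCNEC_cell, 46LCNEC_allo, Lung, 57SCLC_allo, 57SCLC_cell. Ext1 was 25.6-fold lower in 57SCLC than in 46LCNEC cells (log2 fold change -4.77, standard error 0.26, adjusted p = 1.08e-06) and 10.3-fold lower between the allografts (-3.37, standard error 0.12, adjusted p = 7.09e-06). Against Lung it was higher in 46LCNEC_cell (2.66, standard error 0.08) and 46LCNEC_allo (2.28, standard error 0.11), and lower in 57SCLC_cell (-2.11, standard error 0.27) and 57SCLC_allo (-1.09, standard error 0.09). The last of these fell below 2-fold with library size scaling (-0.89).

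Ext2 (ENSMUSG00000027198, chromosome 2, 93491373 to 93653003, minus strand) moved much less. Its normalized counts were 3623, 3366 and 3256 in 46LCNEC_cell, 3413, 4087 and 2912 in 46LCNEC_allo, 1663, 1723 and 1701 in 57SCLC_cell, 1589, 1600 and 1732 in 57SCLC_allo, and 2564, 2286 and 2424 in Lung. Within each line, cells and allografts overlapped, while the 46LCNEC samples, the lungs and the 57SCLC samples did not. Ext2 was 2.01-fold lower in 57SCLC cells (-1.01, standard error 0.07, adjusted p = 3.86e-06) and 2.12-fold lower in 57SCLC allografts (-1.07, standard error 0.14, adjusted p = 0.000744). Both values lie at the 2-fold threshold. The call was lost with library size scaling in cells (-0.78) and in allografts (-0.81), without dish A of 46LCNEC_cell (-0.97), without flask A of 57SCLC_cell (-0.99) and without tumor 319 (-0.94). Between the cells it was also lost in edgeR and in DESeq2 (-0.99 each), which each called 7 members lower. It was called in none of the 4 comparisons with Lung, where its log2 fold changes ran from -0.56 to 0.50.

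The ratio of Ext1 to Ext2 normalized counts was 6.11 ± 0.55 (SD, n = 3) in 46LCNEC_cell, 4.66 ± 0.529 in 46LCNEC_allo, 1.36 ± 0.144 in Lung, 0.94 ± 0.0497 in 57SCLC_allo and 0.479 ± 0.219 in 57SCLC_cell, with 0.733 in flask C and 0.36 and 0.345 in the others. These ratios compare samples and not the abundance of the subunits, since they are not per length: the Ext2 model has 13372 merged exon bases and 2961 in its canonical transcript.

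Among the syndecans, Sdc2 showed the widest span. Sdc2, often called fibroglycan and typical of mesenchymal cells, lies on chromosome 15 (ENSMUSG00000022261, 32920699 to 33035213, plus strand). It had 2471, 2757 and 2886 normalized counts in 46LCNEC_cell and 20164, 30379 and 21187 in 46LCNEC_allo. In 57SCLC_cell it had 0 reads in flasks A and C and 2 reads in flask B. In 57SCLC_allo it had 484, 324 and 487, and the lungs had 2898, 3682 and 3243. None of the groups overlapped. The reads of 46LCNEC_cell gave a ratio of 7345 to 57SCLC_cell, with an exact (Clopper-Pearson) 95% interval from 2033 to 60662 that covers counting error only. The fitted log2 fold change was -11.02 (standard error 0.32, adjusted p = 3.58e-08). Between the allografts Sdc2 was 55.4-fold lower in 57SCLC (-5.79, standard error 0.22, adjusted p = 8.46e-06).

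Sdc1, the main syndecan of epithelia (ENSMUSG00000020592, chromosome 12, 8820854 to 8843725, plus strand), was lower in 57SCLC by a similar amount in both settings. It had 12930, 13488 and 14304 normalized counts in 46LCNEC_cell, 19453, 17272 and 13201 in 46LCNEC_allo, 2220, 2221 and 2382 in 57SCLC_cell, 4012, 3148 and 3780 in 57SCLC_allo, and 8641, 9158 and 10176 in Lung. The samples of 46LCNEC lay above the lungs and those of 57SCLC below them. Its log2 fold change between the lines was -2.58 in cells (standard error 0.07, adjusted p = 2.97e-08). The allografts gave -2.18 (standard error 0.17, adjusted p = 9.23e-05), and these values did not differ past the thresholds (interaction 0.40, standard error 0.19, adjusted p = 0.122, limma). Against Lung it was called lower in 57SCLC_cell (-2.03, standard error 0.08) and in 57SCLC_allo (-1.36, standard error 0.11), and was not called in 46LCNEC_cell (0.54) or 46LCNEC_allo (0.82).

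Sdc4, which acts with integrins at focal adhesions (ENSMUSG00000017009, chromosome 2, 164266025 to 164285807, minus strand), had 12691, 15163 and 15184 normalized counts in 46LCNEC_cell and 3054, 5839 and 3697 in 46LCNEC_allo. It had 377, 361 and 659 in 57SCLC_cell, where flask C was highest, and 1472, 824 and 1278 in 57SCLC_allo. The lungs had 5873, 7844 and 8646, above every sample except those of 46LCNEC_cell. Between the lines, Sdc4 was 30.8-fold lower in 57SCLC cells (-4.99, standard error 0.22, adjusted p = 2.95e-07) and 3.52-fold lower in allografts (-1.80, standard error 0.30, adjusted p = 0.00233). The allograft call was lost without tumor 317 (adjusted p = 0.01, just above the threshold). Against Lung, Sdc4 was lower in 57SCLC_cell (-4.04, standard error 0.25) and in 57SCLC_allo (-2.67, standard error 0.23), and not called in 46LCNEC_cell (0.96) or 46LCNEC_allo (-0.86). The former was called with upper quartile scaling (1.16), edgeR (1.08), DESeq2 (1.04) and without dish A, CT4 or CT5 (1.00 to 1.07), and the latter without tumor 319 (-1.13).

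Sdc3, the syndecan best known from neurons (ENSMUSG00000025743, chromosome 4, 130519826 to 130556217, plus strand), had 14887, 11343 and 11990 normalized counts in 46LCNEC_cell and varied most in 46LCNEC_allo, with 1629, 10688 and 4333 in tumors 312, 319 and 321. It had 3577, 3324 and 2451 in 57SCLC_cell, 3763, 3852 and 4697 in 57SCLC_allo and 5609, 3424 and 3488 in Lung. Sdc3 was 4.09-fold lower in 57SCLC cells (-2.04, standard error 0.16, adjusted p = 8.87e-06). Between the allografts the samples overlapped and no difference was detectable (-0.05, standard error 0.62, adjusted p = 0.952). Sdc3 was called against Lung in 46LCNEC_cell (1.64, standard error 0.19, adjusted p = 3.11e-05) and in none of the other 3 comparisons with Lung, where the sample ranges overlapped.

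The glypicans did not move as a family. Gpc3, a glypican of embryonic growth control that is mutated in an overgrowth syndrome, was the member higher in 57SCLC in both settings. It lies on the X chromosome (ENSMUSG00000055653, 51361303 to 51703137, minus strand). It had 3.75, 2.21 and 3.08 normalized counts in 46LCNEC_cell, which are 10 reads in all, and 22.5, 17.9 and 28.8 in 46LCNEC_allo. In 57SCLC_cell it had 771, 774 and 2133, with flask C highest, and in 57SCLC_allo 1539, 1607 and 1234. Lung was highest with 3133, 4237 and 3815. The log2 fold change between the lines was 8.10 for cells (standard error 0.41, adjusted p = 6.00e-07) and 5.94 for tumors (standard error 0.24, adjusted p = 1.03e-05). Against Lung, Gpc3 was lower in every model, by 9.87 in 46LCNEC_cell, 7.29 in 46LCNEC_allo, 1.77 in 57SCLC_cell and 1.35 in 57SCLC_allo on the log2 scale (in size), each called. In 57SCLC_cell the call was lost when flask A, flask B or any 1 lung was left out, with adjusted p from 0.011 to 0.0199.

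Gpc4, a Wnt-binding glypican, is the neighbour of Gpc3 on the X chromosome (ENSMUSG00000031119, 51139255 to 51254262, minus strand), with 107040 bases between the gene models, and had the opposite order between the lines. It had 1660, 1658 and 1741 normalized counts in 46LCNEC_cell, 2809, 2977 and 3867 in 46LCNEC_allo, 5.45, 3.02 and 6.77 in 57SCLC_cell, 309, 235 and 376 in 57SCLC_allo, and 695, 673 and 622 in Lung. No groups overlapped. Gpc4 was 332-fold lower in 57SCLC cells (-8.17, standard error 0.25, adjusted p = 4.38e-08) and 10.5-fold lower in 57SCLC allografts (-3.40, standard error 0.21, adjusted p = 3.26e-05). Against Lung it was higher in 46LCNEC_cell (1.35, standard error 0.08) and 46LCNEC_allo (2.26, standard error 0.14), and lower in 57SCLC_cell (-6.82, standard error 0.27) and 57SCLC_allo (-1.14, standard error 0.17). The last was not called with library size scaling (-0.93) or without tumor 316 (-0.96).

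Gpc6, the glypican closest to Gpc4 in sequence (ENSMUSG00000058571, chromosome 14, 117162727 to 118216940, plus strand), had 2281, 3299 and 2734 normalized counts in 46LCNEC_cell and 1669, 1394 and 1274 in 46LCNEC_allo. In 57SCLC_cell it had 13.6, 22.9 and 101, so that flask C held most of the group's signal. In 57SCLC_allo it had 201, 238 and 268, which overlapped the 176, 222 and 135 of Lung. It was lower in 57SCLC, both between the cells (-6.38, standard error 0.63, adjusted p = 3.34e-05) and between the tumors (-2.61, standard error 0.17, adjusted p = 3.92e-05). Without flask C the cell value was -7.19 (adjusted p = 5.61e-07). Against Lung it was higher in 46LCNEC_cell (3.97, standard error 0.19) and 46LCNEC_allo (3.04, standard error 0.21). The 57SCLC_cell value was -2.41 and not called (adjusted p = 0.0105), and -3.23 and called without flask C (adjusted p = 7.87e-05).

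Gpc1, the glypican of the nervous system and of many carcinomas (ENSMUSG00000034220, chromosome 1, 92759062 to 92792113, plus strand), was the member higher than Lung in all 4 models. It had 2818, 2844 and 3174 normalized counts in 46LCNEC_cell, 16412, 28094 and 10068 in 46LCNEC_allo, 5334, 5184 and 4027 in 57SCLC_cell, 5118, 5062 and 5021 in 57SCLC_allo, and 875, 754 and 781 in Lung. Each model sample exceeded every lung. The log2 fold change against Lung was 1.87 in 46LCNEC_cell (standard error 0.09), 4.38 in 46LCNEC_allo (standard error 0.35), 2.58 in 57SCLC_cell (standard error 0.12) and 2.66 in 57SCLC_allo (standard error 0.08). Between the lines, Gpc1 was 1.65-fold higher in 57SCLC cells, under the fold threshold (0.71, standard error 0.12, adjusted p = 0.00074), and 3.59-fold lower in 57SCLC allografts (-1.72, standard error 0.34, adjusted p = 0.00507). The allograft call was lost without tumor 312 or any 1 of the 57SCLC tumors, with adjusted p from 0.0179 to 0.0232 and log2 fold changes from -1.73 to -1.71.

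**Figure D2:**
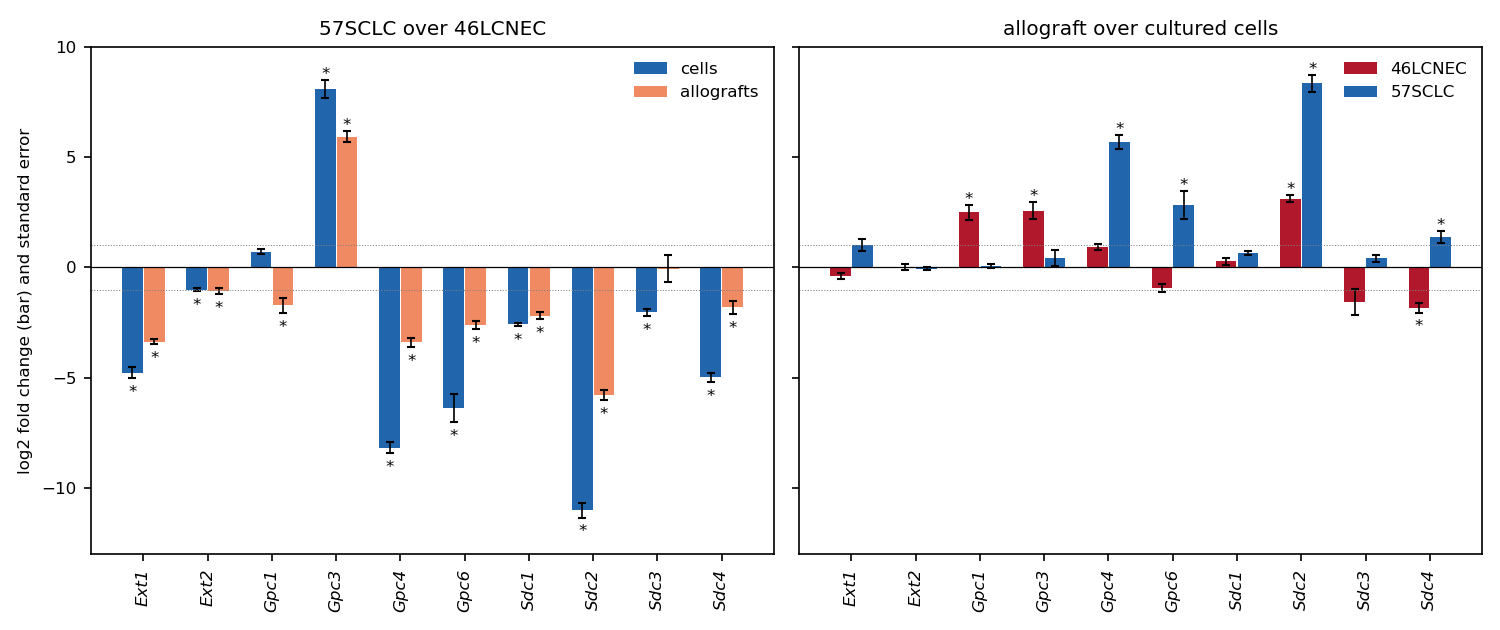
Log2 fold changes of the 10 genes from limma (bars) with standard errors, for 57SCLC over 46LCNEC in cells and allografts (left) and for allografts over cultured cells in each line (right); asterisks mark called genes and dotted lines a 2-fold change. Gpc3 is the gene called higher in 57SCLC in both settings, and Sdc2 the gene called higher in the allografts of both lines.

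Read against Lung, Gpc1 was higher and Gpc3 lower in all 4 models, while Ext1 and Gpc4 were higher in both 46LCNEC groups and lower in both 57SCLC groups. In 46LCNEC_cell, 5 members were higher (Ext1, Gpc1, Gpc4, Gpc6, Sdc3) and 1 was lower (Gpc3), with 20.6% of all genes called higher and 35.0% lower. In 46LCNEC_allo, 5 were higher (Ext1, Gpc1, Gpc4, Gpc6, Sdc2) and 1 was lower (Gpc3), with 13.4% and 22.1% of all genes. In 57SCLC_cell, 1 was higher (Gpc1) and 6 were lower (Ext1, Gpc3, Gpc4, Sdc1, Sdc2, Sdc4), with 21.1% and 32.7% of all genes. The same 7 genes were called in 57SCLC_allo in the same directions, where 18.9% of all genes were higher and 26.9% lower. The median log2 fold change of the 10 genes was 1.16, 1.54, -2.07 and -1.11 in that order of models, and that of all genes was -0.23, -0.14, -0.12 and -0.09. These 4 comparisons share the same 3 lungs. Lung is a mixture of cell types, and in bulk samples fewer cells of a type and less RNA per cell cannot be told apart.

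The makeup of each family is shown by counts per kb of merged exons, which allow levels of different genes to be compared. Syndecans summed to 10028 ± 470 normalized counts per kb in 46LCNEC_cell (SD, n = 3), 9481 ± 1970 in 46LCNEC_allo, 5745 ± 570 in Lung, 1810 ± 251 in 57SCLC_allo and 1058 ± 22.4 in 57SCLC_cell. Sdc4 was the largest part in 46LCNEC_cell (49.3% ± 2.9) and in Lung (44.5% ± 4.44), where Sdc1 followed with 38.9% ± 1.25. Sdc1 led in 57SCLC_cell (51.5% ± 1.6), followed by Sdc3 (33.4% ± 6.62), and in 57SCLC_allo (48.3% ± 1.63). In 46LCNEC_allo, Sdc1 made up 42.7% ± 9.23 and Sdc2 36% ± 2.79, compared with 3.85% ± 0.124 for Sdc2 in the cells. With the length of the canonical transcript, Sdc2 led instead in 46LCNEC_allo (46.4% against 37.9% for Sdc1), and in Lung Sdc1 led with 41.3% against 38.1% for Sdc4.

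Glypicans summed to 910 ± 60.3 normalized counts per kb in 46LCNEC_cell and to 917 ± 197 in 57SCLC_cell, with 810, 796 and 1144 in flasks A, B and C. In 46LCNEC_cell the sum was shared by Gpc4 (34.2% ± 2.12), Gpc1 (33.3% ± 2.22) and Gpc6 (32.2% ± 4.18), and with canonical lengths Gpc6 led with 38.4%. In 57SCLC_cell it was Gpc1 (56.9% ± 17.9) and Gpc3 (42.1% ± 17.4), and Gpc3 exceeded Gpc1 in flask C alone. In flasks A and B, Gpc1 made up 67.6% and 66.8% and Gpc3 31.7% and 32.4%, whereas flask C had 36.2% and 62.2%. The 57SCLC allografts summed to 1090 ± 55.8, with 47.8% ± 2.16 Gpc1, 44.5% ± 3.93 Gpc3 and 5.22% ± 1.45 Gpc4, compared with 0.101% ± 0.028 Gpc4 in the flasks. In 46LCNEC_allo the sum was 2623 ± 871, of which Gpc1 was 68.5% ± 13, and in Lung it was 1468 ± 179, of which Gpc3 was 84.5% ± 2.61. Gpc2 and Gpc5, the other glypicans, stayed below 1% in every group.

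**Figure D3:**
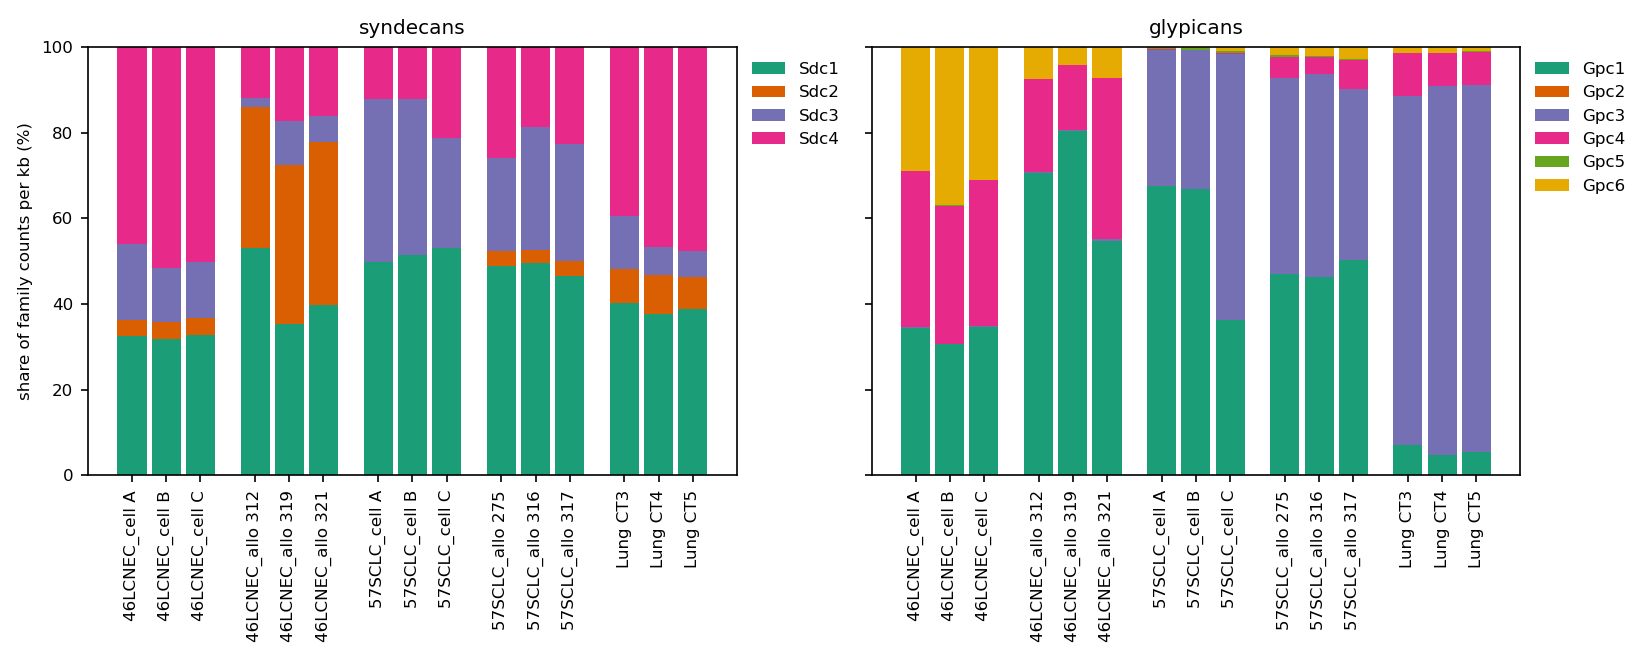
Share of each syndecan (left) and glypican (right) in the family's normalized counts per kb of merged exons, in percent, for each sample. Sdc2 takes 36% of the syndecans in 46LCNEC_allo and 3.85% in 46LCNEC_cell on average, and Gpc3 takes 84.5% of the glypicans in Lung.

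Allografts were then compared with the cultured cells of the same line. In 46LCNEC, 3 members were higher in the tumors, Gpc1 (2.50, standard error 0.33, adjusted p = 0.000824), Gpc3 (2.58, standard error 0.39, adjusted p = 0.00147) and Sdc2 (3.12, standard error 0.17, adjusted p = 1.85e-05), and 1 was lower, Sdc4 (-1.82, standard error 0.23, adjusted p = 0.000695). Of all genes, 14.4% were called higher and 8.45% lower. Gpc3 remained at low counts and its call was lost without dish B (adjusted p = 0.0107) or dish C (adjusted p = 0.0106) of the cells. Sdc3 was not called with all tumors (-1.58, adjusted p = 0.0578) and was called lower without tumor 319 (-2.25, adjusted p = 0.00302). The median over the 10 genes was 0.15, and -0.00 over all genes.

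In 57SCLC, 4 members were higher in the tumors and 0 were lower, with 14.4% of all genes called higher and 2.29% lower. Sdc2 rose from 2 reads in the flasks to 860 reads in the tumors, a ratio of 1160 after scaling (exact 95% interval 320 to 9595, adjusted p = 1.35e-06 in limma). Gpc4 rose 60.3-fold (5.69, standard error 0.32, adjusted p = 3.53e-06). Gpc6 (2.83, standard error 0.62, adjusted p = 0.00775) and Sdc4 (1.37, standard error 0.28, adjusted p = 0.00529) were also called. The Gpc6 call was lost without flask A or B or any 1 tumor (adjusted p from 0.0163 to 0.0398), in edgeR (2.35, adjusted p = 0.0228), in DESeq2 (2.35, adjusted p = 0.0152) and with a pseudocount of 0.1 (adjusted p = 0.0102), and its value was 3.65 without flask C (adjusted p = 4.79e-05). edgeR and DESeq2 thus each called 3 members higher. The Sdc4 call was lost without flask A, flask B, tumor 275 or tumor 317 (adjusted p from 0.0171 to 0.0312). Ext1 was not called (1.01, adjusted p = 0.0175), and was called without flask C (1.37, adjusted p = 3.78e-05). The 0 lower calls held at an unadjusted p under 0.05 in limma, and in edgeR and DESeq2. The median over the 10 genes was 0.84, and 0.00 over all genes.

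Markers listed for other cell types moved in the same comparison, although cultured 46LCNEC itself expressed several of the fibroblast markers. The 6 fibroblast markers summed to between 23.4 and 28.9 normalized counts in 57SCLC_cell, where Col3a1, Dcn and Lum were at or under 3 reads in every flask, and to between 38885 and 59879 in 57SCLC_allo. They summed to between 76105 and 86538 in 46LCNEC_cell, where 5 of the 6 were above 3 reads in every dish, and to between 420733 and 832998 in 46LCNEC_allo. In 46LCNEC_cell the means were 20963 for Col1a1, 50209 for Col1a2, 8276 for Col3a1, 1190 for Pdgfra, 11.1 for Dcn and 0.736 for Lum. In 46LCNEC_allo Dcn had a mean of 9514 and Lum 4515. Endothelial markers (5 genes) summed to at most 88.6 in 57SCLC_cell and at least 2534 in 57SCLC_allo, and to at most 454 in 46LCNEC_cell and at least 5070 in 46LCNEC_allo. Leukocyte markers (5 genes) summed to at most 257 and at least 2768 in 57SCLC, and to at most 383 and at least 8023 in 46LCNEC. The part of these cells in the values of Sdc2, Gpc4, Gpc6, Gpc1, Gpc3 and Sdc4 in tumors was not tested.

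The change from culture to tumor differed between the lines for 7 of the 10 genes, by an interaction term in limma over 12 samples, with 10.8% of all genes called with a positive and 6.78% with a negative term. The term, the change in 57SCLC minus that in 46LCNEC, was positive for Sdc2 (5.23, standard error 0.41, adjusted p = 1.96e-06), Gpc4 (4.77, standard error 0.34, adjusted p = 9.38e-07), Gpc6 (3.77, standard error 0.73, adjusted p = 0.00194), Sdc4 (3.19, standard error 0.40, adjusted p = 9.28e-05) and Ext1 (1.40, standard error 0.32, adjusted p = 0.00526). Sdc4, Gpc6 and Ext1 were lower in every 46LCNEC tumor than in any dish and higher in every 57SCLC tumor than in any flask, although of these changes Ext1 in both lines and Gpc6 in 46LCNEC were not called. Without flask C the term of Gpc6 was 4.58 (adjusted p = 1.98e-06). The term was negative for Gpc1 (-2.43, standard error 0.38, adjusted p = 0.000484) and Gpc3 (-2.16, standard error 0.51, adjusted p = 0.00627). Leaving out 1 sample in turn took the adjusted p of Ext1 to as much as 0.016 and that of Gpc3 to as much as 0.0194. Neither was called in edgeR (adjusted p = 0.0111 for Ext1 and 0.0214 for Gpc3). Sdc3 was called without tumor 319 (2.66, adjusted p = 0.000676) and not with it (1.99, adjusted p = 0.038). The median of the 10 terms was 1.69, and 0.10 over all genes.

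The other genes of the pathway were 49 genes in 7 lists. Between the cells, 14 of the 45 tested were higher in 57SCLC (31.1%, against 23.9% of all genes) and 15 lower (33.3%, against 22.2%), with a median log2 fold change of -0.21. Between the allografts 4 of 44 were higher (9.09%, against 16.1%) and 14 lower (31.8%, against 14.2%), with a median of -0.42. Linker enzymes had 1 of 7 higher and 2 lower in cells, and 0 higher and 1 lower in allografts. The Extl genes, relatives of the polymerases, had 1 of 3 higher and 0 lower in cells, and 0 called in allografts. The epimerase and sulfotransferases were the list with most genes higher in 57SCLC cells, 8 of 14 tested with 2 lower, and 3 of 13 higher with 0 lower in allografts. Enzymes of editing and release had 1 of 4 higher and 3 lower in cells, and 1 of 5 higher and 3 lower in allografts. Precursor supply had 0 of 6 higher in either setting, 4 lower in cells and 3 in allografts. Other heparan sulfate core proteins had 2 of 5 higher and 1 lower in cells, and 0 of 4 higher and 3 lower in allografts. The chondroitin sulfate branch, which competes for the same linker, had 1 of 6 higher and 3 lower in cells, and 0 higher and 4 lower in allografts.

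Hspg2 encodes perlecan, a heparan sulfate proteoglycan of basement membranes, and was 333-fold lower in 57SCLC cells (64.5 ± 11 against 21504 ± 1729 normalized counts, adjusted p = 3.57e-09 in limma) and 11.4-fold lower in allografts (adjusted p = 2.56e-05). Sulf1, a sulfatase that edits finished chains outside the cell, had 19.9 ± 3.67 in 57SCLC_cell and 3797 ± 217 in 46LCNEC_cell, a log2 fold change of -7.52, and -2.10 between the allografts. Both rose in 57SCLC tumors over the flasks, Sulf1 by 6.05 and Hspg2 by 4.54 on the log2 scale, beside the rise in fibroblast markers given above. Sulf2, the other gene of this sulfatase pair, was lower in 57SCLC by 1.02 in cells and 2.47 in allografts (in size). The cell value lies at the 2-fold threshold (484 ± 26.6 normalized counts in 46LCNEC_cell and 240 ± 40.1 in 57SCLC_cell). Papss2, which makes the sulfate donor, was 10.2-fold lower in cells and 10.5-fold lower in allografts. Its cell means were 282 ± 21.2 in 46LCNEC and 27.6 ± 12.4 in 57SCLC. Papss1, which makes the same donor, had more counts, with 2673 ± 54.4 in 46LCNEC_cell and 2499 ± 221 in 57SCLC_cell. In allografts Papss1 had 5108 ± 2559 in 46LCNEC and 2266 ± 196 in 57SCLC. Ugdh, which makes the glucuronic acid precursor, was 4.79-fold and 4.08-fold lower, and Ugp2, the step before it, 2.59-fold and 2.35-fold lower. Xylt2, which starts the linker, was 3.14-fold and 3.22-fold lower. Xylt1, which catalyses the same step, went the other way in cells, with 241 ± 37.6 in 46LCNEC_cell and 1589 ± 99.9 in 57SCLC_cell. In allografts Xylt1 had 1510 ± 418 in 46LCNEC and 1643 ± 397 in 57SCLC. Of the chondroitin branch, Chsy1 (8.23-fold and 7.65-fold), Chsy3 (log2 fold changes -8.07 and -2.90) and Chpf2 (3.28-fold and 5.68-fold) were lower in both settings. Chsy3 had 10 reads in all in 57SCLC_cell, so its cell value is imprecise.

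Against this, the sulfotransferase gene Hs3st6 was at or under 3 reads in every 46LCNEC sample and reached a mean of 1635 ± 381 normalized counts in the 57SCLC flasks and 1282 ± 116 in the tumors. The ratio was 1061 in cells (exact 95% interval 454 to 3268) and 1644 in allografts (455 to 13581). Hs3st1, which makes the antithrombin-binding form of the chain, was higher in 57SCLC cells (ratio 382, exact 95% interval 149 to 1402) and 4.63-fold higher in allografts (adjusted p = 0.00835 in limma). The allograft value lies just under the threshold, with 29 ± 18.6 normalized counts in 46LCNEC_allo and 134 ± 13.7 in 57SCLC_allo. Hs6st3 was 6.77-fold and 17.5-fold higher, and Notum, an extracellular esterase that inactivates Wnt proteins, 35-fold and 29.5-fold higher, all from group means. Notum had 12 reads in all in 46LCNEC_cell and 10 in 46LCNEC_allo, so its ratios are imprecise. Hs6st2, on the X chromosome like Gpc3 and Gpc4, was chosen after its values were seen: it had 0 reads in the 3 flasks of 57SCLC_cell, 1635, 1547 and 1813 normalized counts in 46LCNEC_cell, and between 240 and 712 in all tumors and lungs.

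**Figure D4:**
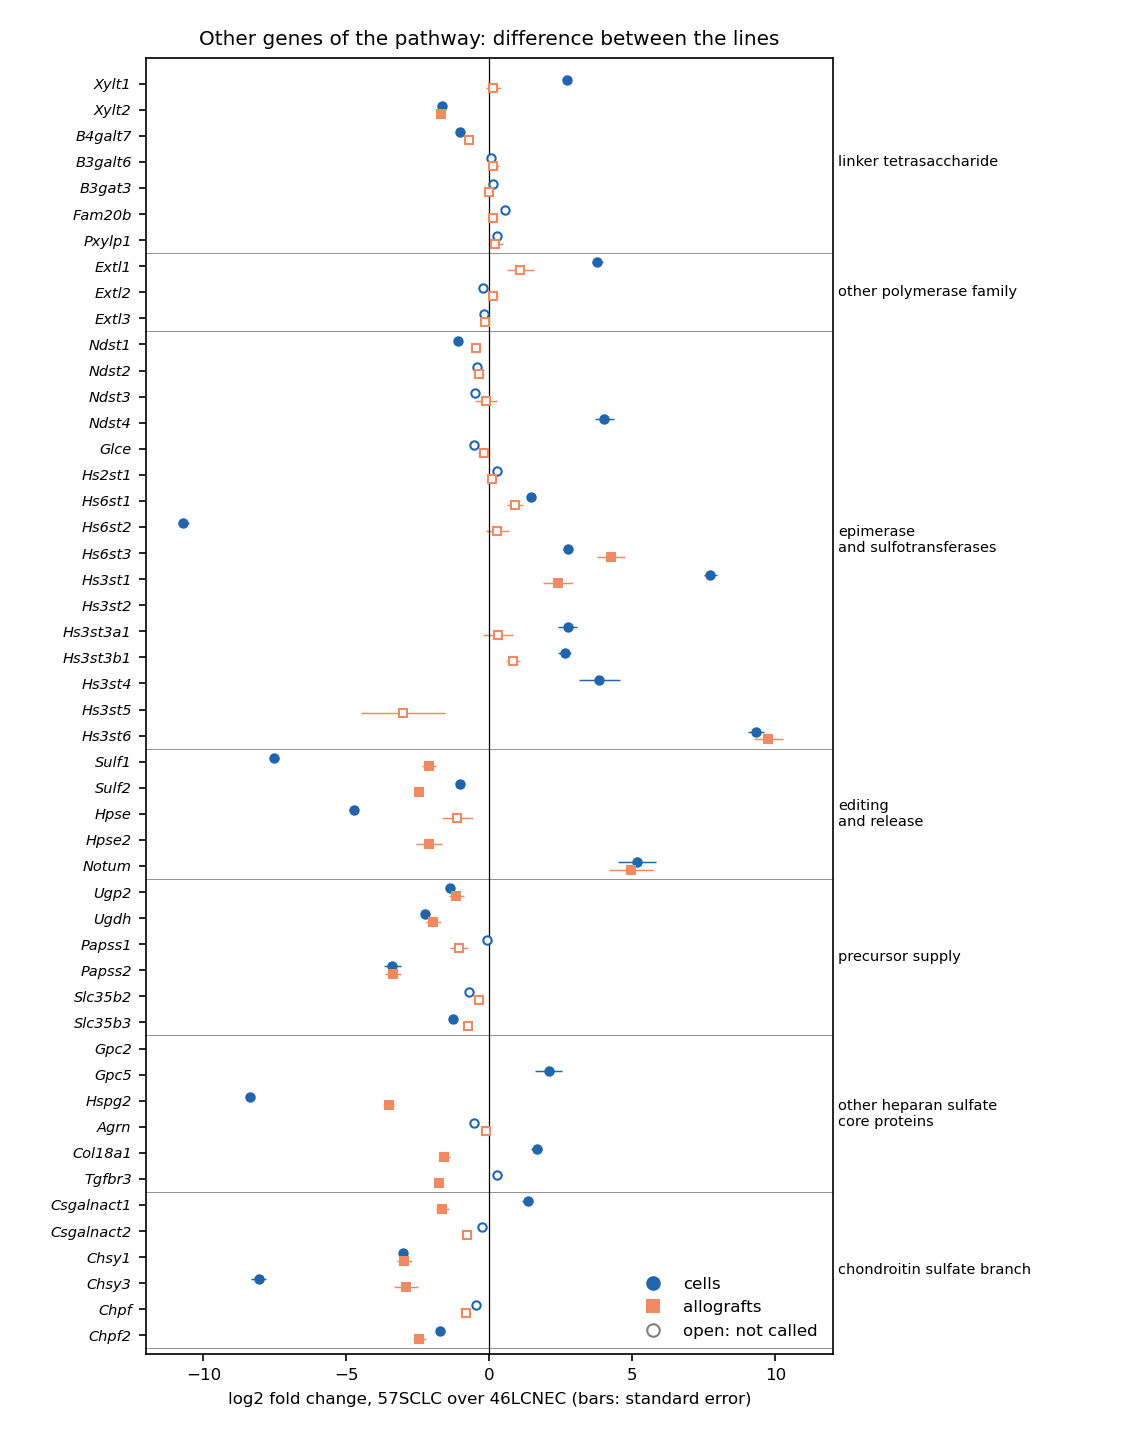
Log2 fold change of 57SCLC over 46LCNEC with standard errors for the other genes of the pathway, by list, in cells (circles) and allografts (squares); filled symbols are called genes, and a gene without a symbol was not tested in that setting. Hspg2 and Sulf1 lie far to the left in cells and nearer to 0 in allografts, and Hs3st6 lies at the right in both.

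Compared with Lung, 12 of 45 genes of the lists were higher in 46LCNEC_cell (26.7%, against 20.6% of all genes) and 17 lower (37.8%, against 35.0%). In 46LCNEC_allo, 12 of 45 were higher (26.7%, against 13.4%) and 8 lower (17.8%, against 22.1%). In 57SCLC_cell, 13 of 46 were higher (28.3%, against 21.1%) and 17 lower (37.0%, against 32.7%), and in 57SCLC_allo 9 of 45 were higher (20.0%, against 18.9%) and 13 lower (28.9%, against 26.9%). Pxylp1, the phosphatase that frees the linker for extension, had 297 ± 29.4 normalized counts in Lung and group means from 928 to 1999 in the models, higher in each of the 4 comparisons. Ndst3, of the enzymes that begin sulfation, was also higher in each (35.1 ± 9.53 in Lung, means from 179 to 426), while its relative Ndst1 was lower (26280 ± 1430 in Lung, means from 4118 to 8918). Hpse2, a heparanase relative without its activity (213 ± 23.1 in Lung), Agrn, the agrin core protein (11611 ± 471), and Csgalnact2, which starts chondroitin chains (3201 ± 127), were lower in all 4. From cells to allografts, 8 of 42 genes of the lists were higher in 46LCNEC (19.0%, against 14.4% of all genes) and 2 lower (4.76%, against 8.45%). In 57SCLC, 7 of 45 were higher (15.6%, against 14.4%) and 4 lower (8.89%, against 2.29%). The interaction was positive for 5 of 47 (10.6%, against 10.8%) and negative for 9 (19.1%, against 6.78%).

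For each member, the genes with the most similar pattern were sought by Pearson's r of log2(normalized count + 1) over the 15 samples among 20143 genes. The points share their groups and libraries, so r is given as a description. Gpc4 was closest to Olfml3 (0.996) and Ttyh2 (0.995), Sdc1 to Fkbp7 (0.995) and Nudt9 (0.993), Sdc2 to Gm11747 and Tgfb1 (0.992 each), and Gpc3 to Tbc1d30 (0.991) and Glb1l2 (0.989). For Sdc4 the genes were Ier5 (0.991) and Itgb1 (0.982), for Ext1 Lamc1 (0.986) and Rrbp1 (0.985), for Ext2 Fmnl3 (0.984) and Tbc1d8b (0.983), for Gpc6 Tnfrsf23 (0.974) and Nek6 (0.970), and for Gpc1 Zbtb25 (0.966) and Nfxl1 (0.965). Sdc3 had no gene as close, with 0.892 for Gm5120 and 0.889 for Prpf38b.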

How the data were processed

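RNA was poly-A selected and sequenced in pairs from 15 samples in 5 groups of 3. Reads were aligned by the authors with Rbowtie2 (GRCm39) and summarised by featureCounts over GENCODE release 27 genes. The authors deposited counts divided by DESeq2 size factors, which are signal values and not raw counts. The strand setting and the handling of reads with several alignments are not given in the sources used here, so reads of overlapping or antisense genes may be shared. Every non-zero value was a whole multiple of 1 step per sample (within 0.1 read), which gave back the reads, 26502525 in the median sample. Comparisons used limma 3.58.1 in R 4.3.3 on log2(value + 1), the samples compared, and genes that reached 10 normalized counts in 3 or more of them. Alternatives were edgeR 4.0.16 and DESeq2 1.42.0 on recovered reads, other scalings, pseudocounts, filters and thresholds, 1 fit of all 15 samples, and samples left out. Gene shares used lengths of merged exons, and the canonical length was added after the data were seen. The procedures were tested on simulated counts with 200 planted changes per comparison, all recovered, in genes that were not near the floor. The simulation used a single fixed dispersion, so it checks the code and not the spread of these samples. Lengths and positions came from GENCODE release 39, which held 98.9% of the identifiers. The members and lists were chosen with earlier results of these data known. Other genes were named where called in the same direction in both line comparisons (at most 4 per list) or in all 4 comparisons with Lung (at most 3 per list). Cells came from separate dishes or flasks of 1 line, so their p-values measure the spread between cultures only.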

Additional observations from a re-analysis of the deposited data

Results flagged for a closer look

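The change from cultured cells to allografts differed between the lines for 7 of the 10 genes, by the interaction term of limma with Benjamini-Hochberg adjustment over all genes. On the log2 scale, 57SCLC minus 46LCNEC, it was 5.23 for Sdc2 (adjusted p = 1.96e-06), 4.77 for Gpc4 (adjusted p = 9.38e-07), 3.77 for Gpc6 (adjusted p = 0.00194), 3.19 for Sdc4 (adjusted p = 9.28e-05), 1.40 for Ext1 (adjusted p = 0.00526), -2.43 for Gpc1 (adjusted p = 0.000484) and -2.16 for Gpc3 (adjusted p = 0.00627). In edgeR, 4 positive and 1 negative terms were called, without Ext1 (adjusted p = 0.0111) and Gpc3 (adjusted p = 0.0214). Both calls were also lost in several limma fits without 1 sample (adjusted p up to 0.016 and 0.0194). That of Gpc3 was lost in limma with a pseudocount of 5 (adjusted p = 0.0397). For Sdc4, Gpc6 and Ext1, every 46LCNEC tumor was lower than every dish and every 57SCLC tumor higher than every flask. Groups of 3 samples were not tested for outliers.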

How the results depend on the processing

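Over 1510 pairs of a gene and an alternative, 1415 stayed as in the main fit, that is called or not called. Of the 515 pairs not called in the main fit, 23 gained a call and 16 changed sign. Among the pairs that were called there, 72 lost the call and none changed direction. A test against a fold change of 2 left 5 members lower between the allografts, 2 lower in 57SCLC_allo against Lung, 1 higher and 0 lower in 46LCNEC allografts against cells, 2 higher in 57SCLC allografts against cells, and 3 positive and 0 negative interaction terms. The lower count in 46LCNEC allografts against cells was 2 with upper quartile scaling and with all 15 samples in 1 fit. The negative interaction count was 1 with a pseudocount of 5 and with edgeR, and the positive count was 4 with edgeR. Leaving out 1 sample in turn gave 1 to 2 lower in 46LCNEC_allo against Lung, 1 to 2 lower in 46LCNEC allografts against cells, 2 to 5 higher in 57SCLC allografts against cells, and 1 to 2 negative interaction terms. The cause was not tested. Over all genes, the test against a fold change of 2 lowered the calls from 5312 to 2861 between the allografts, from 6412 to 3451 in 46LCNEC_allo against Lung, from 3738 to 1414 in 46LCNEC allografts against cells, from 2842 to 1700 in 57SCLC allografts against cells and from 3233 to 1293 for the interaction. Without dish C, the calls in 46LCNEC allografts against cells numbered 2428.

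With the letters A, B and C of the cell cultures as a replicate block, 8 members were again lower and 1 higher between the cells. The correlation of same-letter deviations was 0.0916, -0.0837 and -0.00619, so the letters do not pair the cultures. Among the 10 genes, low counts limit the fold changes of Sdc2 in 57SCLC_cell (2 reads) and of Gpc3 in 46LCNEC_cell (10 reads). The 57SCLC_cell libraries were the deepest, with 37368046 to 44876572 reads.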
